A study of Mus musculus with 10 samples.

Results

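The subject is 10 genes that encode matrix-binding integrin subunits, compared between hypertrophied hepatic stellate cells (hypHSCs) and quiescent hepatic stellate cells (qHSCs) of mouse liver. The genes are the α subunits *Itga1*, *Itga5*, *Itga6*, *Itga8*, *Itga9* and *Itgav* and the β subunits *Itgb1*, *Itgb3*, *Itgb5* and *Itgb8*. They were taken by symbol from the 25233 rows of the deposited table that carry one, and all 10 were found, each in 1 row. The comparison rests on 5 libraries of hypHSCs and 5 of qHSCs, all from C57BL/6J mice. Mice of hypHSC 1 and 2 had been fed the CDAHFD, which is high in fat and lacks choline and brings on steatohepatitis with fibrosis, for 13 weeks and were 19 weeks old, and those of hypHSC 3, 4 and 5 had been fed it for 12 weeks and were 18 weeks old. Mice of the qHSCs were on the standard diet and were older, at 36 weeks for qHSC 1, 2 and 5 and 34 weeks for qHSC 3 and 4. Both kinds of cells were released by enzymes perfused through the liver, floated on a density gradient and sorted by their own fluorescence, green for hypHSCs and blue for qHSCs. For the CDAHFD livers the digestion was stronger, and antibiotics were added to the buffers other than the perfusion buffer. In the paper's counts, cells whose droplets were no longer intact made up a large part of the hypHSC gate, though fewer than the intact cells. The paper proposes that such cells are dead or damaged. Diet, age, digestion, antibiotics and gate therefore changed together and cannot be told apart. The labels do not tie libraries to mice. The hypHSC preparations were picked for RNA quality from a set with more samples than mice, and the qHSC preparations were selected too. Libraries of hypHSCs may therefore share a mouse, so n counts preparations and the p-values measure the spread between preparations.

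Integrins are receptors of 1 α and 1 β subunit that tie the cell to the matrix around it. The α subunit largely sets which ligand is bound: α1 with β1 binds collagens and laminins, α5 with β1 binds fibronectin, α6 with β1 or β4 binds laminins, α8 with β1 binds nephronectin and other proteins with an RGD sequence, and α9 with β1 binds tenascin C and osteopontin. The αv subunit pairs with β1, β3, β5, β6 or β8 and binds RGD ligands such as vitronectin, fibronectin and the latency peptide of TGF-β, and through the latter αv integrins can release active TGF-β. In liver, stellate cells lie between hepatocytes and the sinusoid on a matrix that holds laminin, collagen IV and fibronectin, and αv integrins of these cells are known for their part in fibrosis.

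The values are normalized counts, that is, reads counted per gene divided by 1 DESeq2 size factor per library, as the authors deposited them. The log2 fold change is hypHSCs over qHSCs on the log2(normalized count + 1) scale, with the standard error (SE) and Benjamini-Hochberg adjusted p of limma over 14630 genes tested, and the 1 that is added makes the change of weakly expressed genes look smaller. A gene was called where the log2 fold change was 1 or more in size with an adjusted p no larger than 0.05. Reads on genes with a symbol numbered 30534719 to 43283589 in hypHSCs and 35640104 to 47317028 in qHSCs, and 3 reads, taken as the floor of detection, equal 2.25 to 4.54 normalized counts, a limit of counting error only. Of the reads, 2.21% to 12.8% were mitochondrial in the hypHSC libraries, against 1.25% to 1.61% for qHSCs.

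The label of the cells was checked against markers. Summed over 10 stellate cell markers the level was 35017 to 64232 normalized counts in hypHSCs and 1.37e+06 to 2.27e+06 in qHSCs, and all 10 were called lower. Over 10 macrophage markers the sum was 1.03e+06 to 1.44e+06 in hypHSCs and 4711 to 102604 in qHSCs, with qHSC 1 and 4 the highest of the qHSCs, and all 10 were called higher. Over all genes tested, 17.8% were called higher and 21.7% lower. The groups were apart for each of the 10 stellate cell markers and for 6 of the 10 macrophage markers. Of the defining markers, *Lrat* was at 476 to 2312 in hypHSCs and 74761 to 136938 in qHSCs, and *Cd68* at 115258 to 196974 and 332 to 7893, so none of these was at 0 in any library. The hypHSC libraries thus hold stellate cell transcripts, at a level far below that of the qHSCs, next to abundant macrophage transcripts. Sums of the other lists were 13643 to 222227 in hypHSCs and 28409 to 108483 in qHSCs for 8 hepatocyte markers, 701 to 1211 and 1124 to 2530 for 10 sinusoidal endothelial markers, 1454 to 5827 and 0 to 110 for 6 neutrophil markers, and 106 to 666 and 10.2 to 177 for 7 T, NK and B cell markers. In bulk RNA, fewer cells of a type and less RNA per cell cannot be told apart, and the part of these marker differences in the integrin results was not tested. Among the hypHSCs, hypHSC 5 stood lowest for *Actb*, at 18213 normalized counts against 61939 to 296496, and among the qHSCs, qHSC 3 had the lowest stellate cell sum, so the integrin values are also given without them where this matters.

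**Figure D1:**
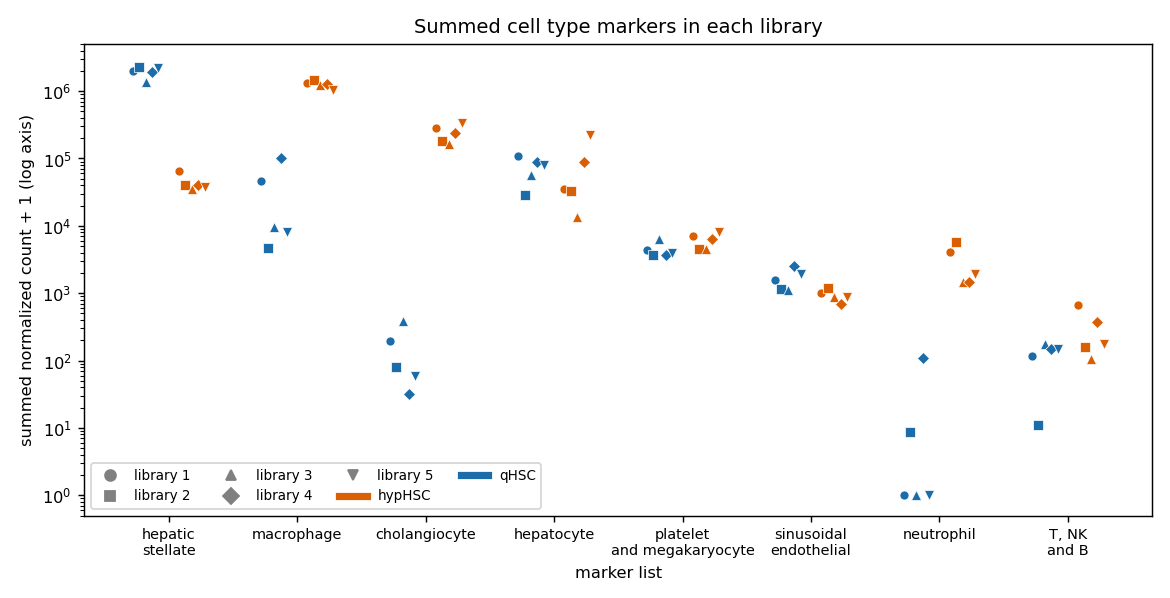
Summed normalized counts of 8 lists of cell type markers in each of the 10 libraries, on a log axis after adding 1, with a symbol for each library and a colour for each group. Stellate cell sums lie at 1.37e+06 to 2.27e+06 in qHSCs and at 35017 to 64232 in hypHSCs, and macrophage sums lie the other way round.

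Promoters are shown for 4 genes that behaved differently, so that the stretches beside these changes can be read: *Itga6* and *Itga1*, which were called in opposite directions, and the β subunits *Itgb5* and *Itgb3*, which stayed high in both groups and fell, respectively. Each sequence is the 250 bases before the start of the gene's canonical transcript, read 5′ to 3′ on the gene's own strand from GRCm39, which is the build of the deposited table. The lines hold chr2:71616969-71617218 (plus strand) for *Itga6*, chr13:115238678-115238927 (minus strand) for *Itga1*, chr16:33649738-33649987 (plus strand) for *Itgb5* and chr11:104498576-104498825 (plus strand) for *Itgb3*. Capitals mark matches to the motifs searched on both strands, here only the GC box GGGCGG, which reads CCGCCC when it lies on the other strand.
Itga6: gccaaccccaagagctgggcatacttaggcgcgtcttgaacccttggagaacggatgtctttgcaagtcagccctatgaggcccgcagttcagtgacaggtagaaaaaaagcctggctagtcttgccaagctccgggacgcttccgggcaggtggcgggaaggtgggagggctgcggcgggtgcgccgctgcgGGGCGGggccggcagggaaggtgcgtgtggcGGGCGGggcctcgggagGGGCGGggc
Itga1: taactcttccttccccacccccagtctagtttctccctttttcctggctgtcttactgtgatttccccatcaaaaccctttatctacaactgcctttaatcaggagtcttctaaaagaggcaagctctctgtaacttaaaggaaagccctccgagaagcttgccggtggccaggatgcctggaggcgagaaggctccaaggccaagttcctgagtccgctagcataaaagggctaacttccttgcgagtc
Itgb5: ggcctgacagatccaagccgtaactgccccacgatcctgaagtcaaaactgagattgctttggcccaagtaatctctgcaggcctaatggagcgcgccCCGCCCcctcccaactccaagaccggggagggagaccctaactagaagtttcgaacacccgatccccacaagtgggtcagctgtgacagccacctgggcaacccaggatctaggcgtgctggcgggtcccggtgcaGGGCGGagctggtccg
Itgb3: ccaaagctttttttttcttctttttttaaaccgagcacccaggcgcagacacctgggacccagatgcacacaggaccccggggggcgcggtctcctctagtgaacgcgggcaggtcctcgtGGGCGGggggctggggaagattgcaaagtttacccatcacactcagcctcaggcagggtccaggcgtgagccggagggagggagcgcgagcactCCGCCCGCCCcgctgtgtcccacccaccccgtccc
The Itga6 stretch held 3 GC boxes, Itgb5 held 2 and Itgb3 held 3, of which 2 overlap in 1 run of capitals, whereas Itga1 held none. The G and C content was 67.6% for *Itga6*, 50% for *Itga1*, 61.6% for *Itgb5* and 64.4% for *Itgb3*. Over all 10 integrin genes, 7 stretches held a GC box, against 36.3% of 21738 promoters of the same length. The AP-1 motif TGACTCA was in none of the 10 and in 4.03% of all, and the E-box CACGTG was likewise in none, against 6.26% of all. The TEAD motif GGAATG was found in 1, *Itgb8*, against 12.1% of all, and the TATA box TATAAA in 2, *Itga8* and *Itgav*, against 11.9%. A match of letters describes the sequence and is not a site.

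Of the 10 integrin genes, 3 were called higher in hypHSCs (*Itga5*, *Itga6* and *Itgav*) and 5 were called lower (*Itga1*, *Itga8*, *Itga9*, *Itgb3* and *Itgb8*), while *Itgb1* and *Itgb5* were not called. Over all genes tested 39.5% were called, 17.8% higher and 21.7% lower, so calls were common in this comparison and a count of called integrins has to be read against that share. Of all calls 45.0% were higher, and this split was 32.4% with libraries scaled to the same total and 17.4% with scaling on *Hprt*, *Pgk1* and *Actb*. The groups did not overlap for 8 of the 10, *Itga6* and *Itgav* higher and the other 6 lower in hypHSCs, against 39.5% of all genes tested, 17.6% higher and 22% lower. The median log2 fold change of the 10 was -1.74, against -0.20 over all genes. All 10 passed the filter, which asked for 10 or more normalized counts in 5 or more of the 10 libraries, and *Itga6* passed it through the hypHSCs alone, so that its passing already required a difference and its place in these counts is a description. *Itgb3* reached 10 in 5 qHSC and 2 hypHSC libraries and *Itgb8* in 5 and 3.

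**Figure D2:**
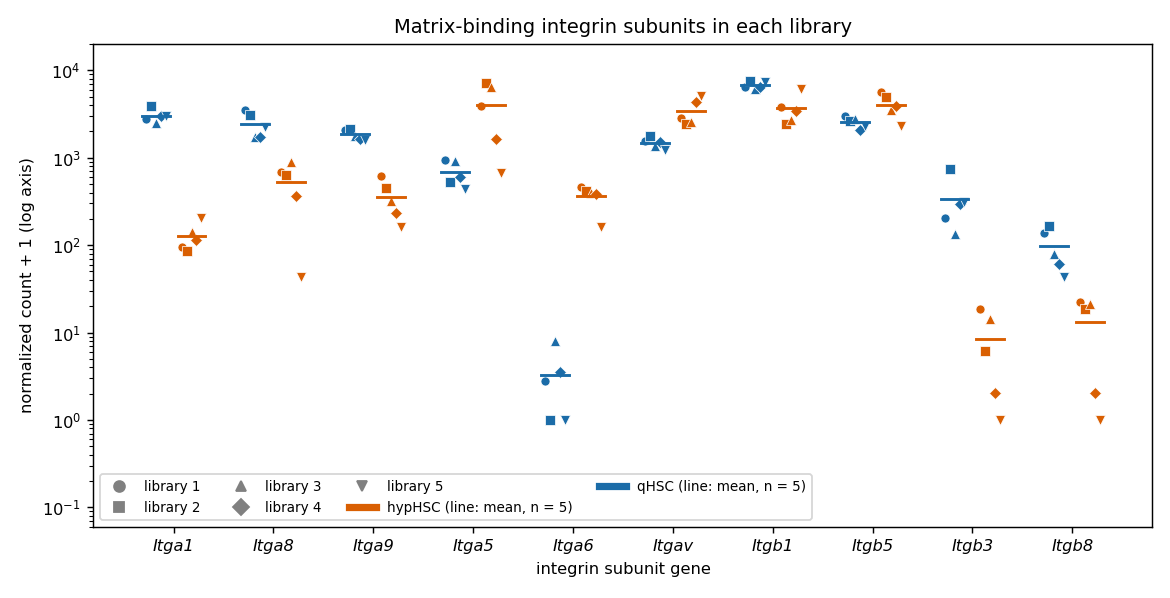
Normalized counts of the 10 integrin subunit genes in each library, on a log axis after adding 1, with a horizontal line at the mean of each group (n = 5). For *Itga6* the hypHSCs lie at 162 to 462 and the qHSCs at 0 to 7.09, for *Itgb3* the order is turned, and for *Itgb5* and *Itga5* the groups overlap.

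Among the α subunits that bind collagen, *Itga1* (chromosome 13, 115092841 to 115238501, minus strand) is the one among the 10. Its normalized counts were 92.98, 83.9, 139.7, 112 and 201 in hypHSC 1 to 5 and 2780.4, 3901, 2467, 2968 and 3004 in qHSC 1 to 5. Every hypHSC library lay more than 10 times below every qHSC library, and the hypHSCs had no library near the qHSC range. The log2 fold change was -4.63 (SE 0.26, adjusted p = 2.40e-07 from limma), and leaving out any 1 library kept it from -4.82 to -4.50. Of the exon bases of its canonical transcript, 27.0% are also covered by other annotated genes, *Mocs2* among them, a gene of molybdenum cofactor synthesis that stood at 1306 to 2158 normalized counts in hypHSCs and 1113 to 1258 in qHSCs. Reads from the shared bases could not be assigned with certainty because the libraries do not keep the strand, so the level of *Itga1* in each group, and with it the size of its fall, is uncertain.

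The fibronectin receptor subunit *Itga5* (chromosome 15, 103252716 to 103275218, minus strand) moved the other way. It had 3919, 7122, 6519, 1619.8 and 672 normalized counts in hypHSC 1 to 5 and 950.3, 523, 925, 595 and 438 in qHSC 1 to 5. The first 3 hypHSC libraries stood far above all qHSCs, hypHSC 4 was above them by less, and hypHSC 5 fell within the qHSC range, below qHSC 1 and 3, so the groups overlapped. On the log2 scale it rose by 2.14 (SE 0.59, adjusted p = 0.0114 from limma), with 1.81 to 2.66 when 1 library was left out in turn, and an exact two-sided permutation test over the 252 arrangements gave p = 0.0238. With the 3 hypHSC libraries at 12 weeks of diet only, it was no longer called (1.55, adjusted p = 0.0720 from limma).

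The laminin receptor subunit *Itga6* (chromosome 2, 71617272 to 71688771, plus strand) showed the largest rise of the 10. Its values were 462, 420.3, 394, 385 and 162 normalized counts in hypHSC 1 to 5 and 1.81, 0, 7.09, 2.57 and 0 in qHSC 1 to 5, the latter from 2, 0, 9, 3 and 0 reads. All hypHSC libraries were well above the floor of 3 reads, hypHSC 5 at a lower level than the other 4, whereas only qHSC 3 exceeded the floor among the qHSCs. The log2 fold change of 7.16 (SE 0.65) depends on the added count because the qHSC values are so low, with 5.66 when 5 was added in place of 1 and 7.33 by DESeq2 on the recovered reads. With no filter on low counts, over the 19373 genes that had any read, the change was the same and limma gave an adjusted p of 1.07e-05. *Itgb4*, which encodes the other partner of α6, was at 210.2, 17.6, 34.1, 27.3 and 10.6 normalized counts in hypHSC 1 to 5 and 0.910, 8.52, 8.66, 7.70 and 18.7 in qHSC 1 to 5 and was not called (2.11, SE 0.87, adjusted p = 0.0646 from limma). For *Itgb4* hypHSC 1 stood far above every other library, and hypHSC 2 and 5 lay within the qHSC range. Of the stretches of the *Itga6* transcript at the length of a read, 6.15% also occur in *Gm29397*, so a small part of its reads cannot be placed with certainty.

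Both α subunits of the nephronectin and tenascin receptors fell. *Itga8* (chromosome 2, 12111462 to 12306755, minus strand) was at 687, 630.5, 889, 363 and 42.4 normalized counts in hypHSC 1 to 5 and at 3534, 3091, 1712, 1719.9 and 2240.4 in qHSC 1 to 5. The groups were apart, and hypHSC 5 lay far below the other hypHSCs. Its log2 fold change was -2.71 (SE 0.71, adjusted p = 0.00835 from limma) and -1.94 without hypHSC 5, and 10.8% of its canonical exon bases overlap another annotated gene. For *Itga9* (chromosome 9, 118435777 to 118730071, plus strand) the values were 614, 451, 320.2, 231 and 162 in hypHSC 1 to 5 and 2095, 2119, 1785, 1641 and 1614 in qHSC 1 to 5. The qHSC libraries were close together, and the highest hypHSC library, hypHSC 1, was still below all of them. *Itga9* changed by -2.52 on the log2 scale (SE 0.33, adjusted p = 8.82e-05 from limma).

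The shared α subunit of the RGD receptors, *Itgav* (chromosome 2, 83554796 to 83637261, plus strand), was higher in hypHSCs by a modest amount. The values were 2820.3, 2448, 2544, 4368 and 5044 normalized counts in hypHSC 1 to 5 and 1565, 1779.9, 1366, 1509 and 1239 in qHSC 1 to 5. All hypHSCs were above all qHSCs, and hypHSC 4 and 5 were the highest, which is the reverse of their place for *Itga5*, *Itga8* and *Itga9*. On the log2 scale the rise was 1.15 (SE 0.23, adjusted p = 0.00159 from limma). It lies close to the threshold of 1 and the call was lost without hypHSC 5 (0.999), without both hypHSC 5 and qHSC 3 (0.97), with libraries scaled to the same total (0.80) and with scaling on *Hprt*, *Pgk1* and *Actb* (0.21).

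Among the β subunits, *Itgb1* (chromosome 8, 129412135 to 129460060, plus strand), the partner of most matrix-binding α subunits, was lower in hypHSCs without being called. It had 3754, 2451, 2697, 3389.6 and 6057 normalized counts in hypHSC 1 to 5 and 6507, 7507, 6080.3, 6365 and 7324 in qHSC 1 to 5. The groups did not overlap, but hypHSC 5 lay only just below the lowest qHSC library, qHSC 3. Its log2 fold change was -0.95 (SE 0.23, adjusted p = 0.00535 from limma), just short of the threshold for the size of the change. Without hypHSC 5 it was called (-1.15), as it was without both hypHSC 5 and qHSC 3 (-1.19), under scaling to the same total (-1.31) and on *Hprt*, *Pgk1* and *Actb* (-1.89).

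For *Itgb5* (chromosome 16, 33650035 to 33769706, plus strand), the vitronectin receptor partner of αv, the levels stayed high in both groups. The values were 5585, 4898, 3558, 3927 and 2293 normalized counts in hypHSC 1 to 5 and 2967, 2647, 2753, 2089 and 2294 in qHSC 1 to 5. The first 4 hypHSC libraries were above all qHSCs and hypHSC 5 lay within the qHSC range. Its log2 fold change was 0.62 (SE 0.23, adjusted p = 0.0471 from limma, exact two-sided permutation p = 0.0476) and did not reach the threshold for a call. Scaling on *Hprt*, *Pgk1* and *Actb* turned its sign (-0.32). Of its transcript stretches at read length, 7.80% also occur in *Gm38317*.

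The partners of αv that were scarce in hypHSCs were *Itgb3* and *Itgb8*. *Itgb3* (chromosome 11, 104498826 to 104561295, plus strand), which also pairs with αIIb in the fibrinogen receptor of platelets, was at 17.5, 5.18, 13.3, 1.05 and 0 normalized counts in hypHSC 1 to 5 and at 202, 746, 134, 291 and 312 in qHSC 1 to 5. Among the hypHSCs the first 3 were above the floor of 3 reads and hypHSC 4 and 5 were at or under it, while among the qHSCs qHSC 2 was more than double the next. The log2 fold change was -5.81 (SE 0.84, adjusted p = 0.000183 from limma), -4.78 with 5 added in place of 1, -5.22 without hypHSC 5 and -5.45 by DESeq2. *Itgb8* (chromosome 12, 119121757 to 119202536, minus strand), known for releasing TGF-β with αv, was low throughout, at 21.6, 17.6, 19.96, 1.05 and 0 normalized counts in hypHSC 1 to 5 and 138, 163, 77.2, 59.9 and 42.7 in qHSC 1 to 5. Its hypHSC libraries split in the same way as those of *Itgb3*, and no hypHSC library reached the lowest qHSC. *Itgb8* changed by -3.60 on the log2 scale (SE 0.94, adjusted p = 0.00850 from limma), by -2.74 with 5 added in place of 1, by -2.89 without hypHSC 5 and by -4.62 with the hypHSCs at 12 weeks of diet only.

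**Figure D3:**
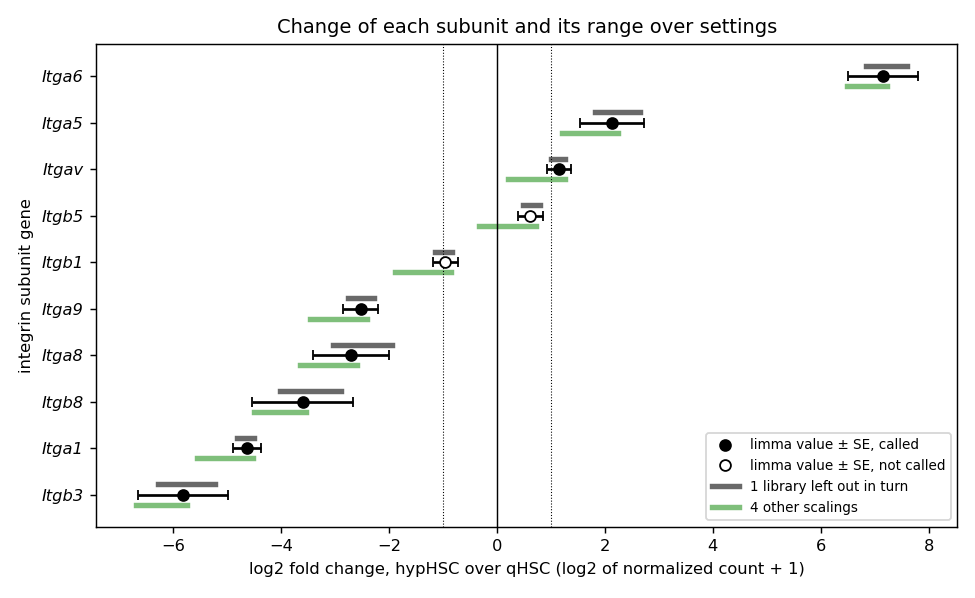
Log2 fold change of each integrin subunit gene with its SE from limma (filled circle called, open circle not called), the range with 1 library left out in turn (grey bar) and the range over 4 other scalings of the libraries (green bar), with dotted lines at the thresholds of -1 and 1. *Itga6* at 7.16 and *Itgb3* at -5.81 mark the ends, and the scaling range crosses 0 for *Itgb5*, whose value falls to -0.32.

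The level of the genes per length was compared as FPKM, reads per kilobase of exons of the canonical transcript and scaled to the reads on genes with a symbol (mean ± SD, n = 5 libraries). In qHSCs the order began with *Itgb1* at 41.1 ± 2.53 FPKM and *Itgb5* at 23.5 ± 3.97, whose ranges were apart from each other and from the rest. The next 6 genes, *Itga8* at 10.97 ± 3.69, *Itga1* at 8.27 ± 1.35, *Itga9* at 8.03 ± 1.21, *Itgav* at 6.17 ± 0.94, *Itga5* at 4.84 ± 1.85 and *Itgb3* at 1.76 ± 1.24, formed a chain in which each range overlapped the next. *Itgb8* followed at 0.351 ± 0.189 and *Itga6* was last at 0.0166 ± 0.0214, each apart from its neighbour. In hypHSCs the order was *Itgb5* at 29.5 ± 10.1 FPKM, *Itga5* at 22.9 ± 17.5, *Itgb1* at 17.1 ± 5.07 and *Itgav* at 10.9 ± 2.68, where each range overlapped the next, the ranges of the first and the last of these 4 were apart, and the range of *Itgav* was apart from that of *Itga6*, the next. *Itga6* at 2.02 ± 0.735, *Itga8* at 1.93 ± 1.32 and *Itga9* at 1.23 ± 0.654 overlapped in turn, *Itga1* at 0.268 ± 0.0888 lay below the range of *Itga9* but within the wider range of *Itga8*, and *Itgb8* at 0.0365 ± 0.0325 and *Itgb3* at 0.0327 ± 0.0341 were lowest. The qHSC set thus led with β1 and the hypHSC set with β5, α5, β1 and αv, of which neighbours in the order do not differ beyond their spread.

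Because a share within a library does not depend on the scaling between libraries, the β subunits that can pair with αv were also given as shares of their summed FPKM, with *Itgb6* added. Of this sum *Itgb1* made up 30.3, 24.8, 33.2, 36.2 and 63.7% in hypHSC 1 to 5 and 57.9, 61.4, 58.5, 64.97 and 66.1% in qHSC 1 to 5. The share of *Itgb5* was 67.8, 74.6, 65.9, 63.1 and 36.3% in hypHSC 1 to 5 and 39.8, 32.6, 39.9, 32.1 and 31.2% in qHSC 1 to 5. In 4 of 5 hypHSC libraries β5 was the larger of these and in all qHSCs β1 was, with hypHSC 5 on the qHSC side at 63.7% *Itgb1*. *Itgb3* averaged 2.59 ± 1.62% in qHSCs and 0.0639 ± 0.0650% in hypHSCs. *Itgb8* averaged 0.512 ± 0.241% in qHSCs and 0.0726 ± 0.0655% in hypHSCs. *Itgb6*, an αv partner of epithelial cells that is known for releasing TGF-β, averaged 0.656 ± 0.609% in hypHSCs and had reads in 1 qHSC library only. These shares are of transcripts and do not give the amounts of the receptor pairs.

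For the 6 α subunits that can pair with β1, the shares were computed in the same way. *Itga5* took 56.7, 73.4, 70.5, 32.3 and 16.7% of their summed FPKM in hypHSC 1 to 5 and 14.5, 8.16, 18.8, 12.4 and 9.13% in qHSC 1 to 5. The share of *Itgav* was 24.2, 14.95, 16.3, 51.7 and 74.2% in hypHSC 1 to 5 and 14.2, 16.5, 16.5, 18.7 and 15.3% in qHSC 1 to 5. The first 3 hypHSC libraries were thus led by α5 and the last 2 by αv, and together these 2 genes held most of the sum in every hypHSC library. In qHSCs the sum was spread over α8 (28.2 ± 5.32%), α1 (21.9 ± 3.52%), α9 (21.04 ± 0.987%), αv (16.2 ± 1.68%) and α5 (12.6 ± 4.30%). In hypHSCs α1, α8 and α9 averaged 0.861 ± 0.646%, 4.40 ± 2.29% and 3.18 ± 1.34%, and α6 averaged 5.36 ± 1.66% against 0.0448 ± 0.0593% in qHSCs.

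**Figure D4:**
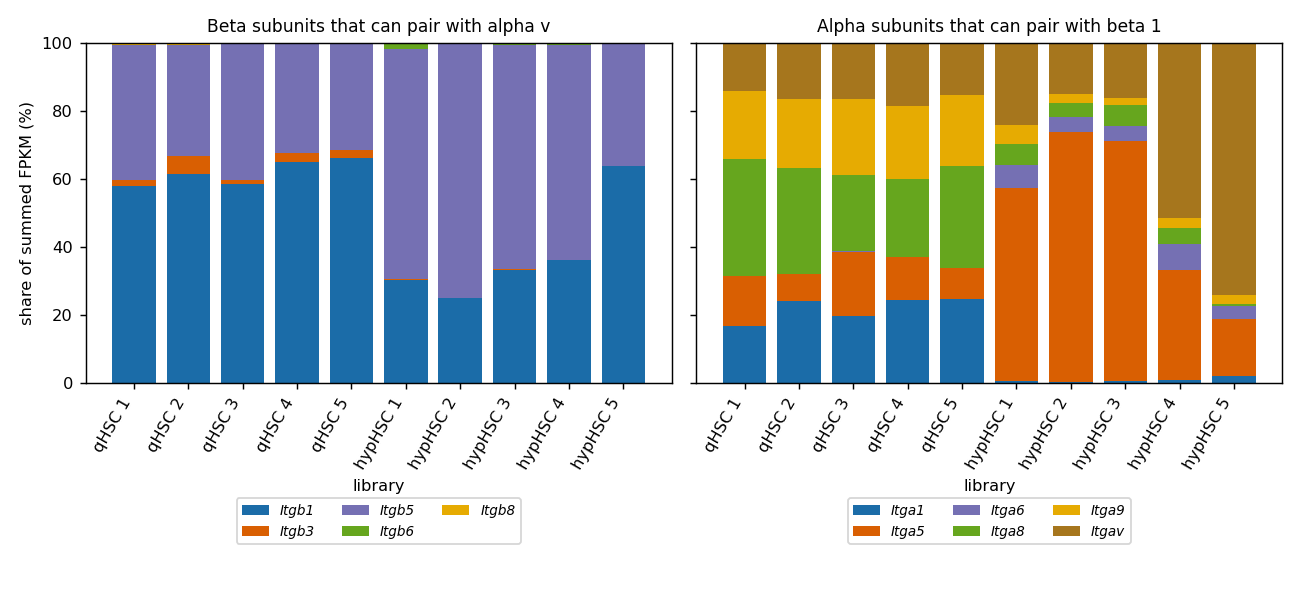
Share of each subunit in the summed FPKM, in percent, per library (stacked bars from 0 to 100), for the 5 β subunits that can pair with αv (left) and the 6 α subunits that can pair with β1 (right). *Itgb5* is the larger β share in hypHSC 1 to 4 and *Itgb1* in hypHSC 5 and all qHSCs, and *Itga5* leads in hypHSC 1 to 3 and *Itgav* in hypHSC 4 and 5.

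The hypHSC libraries differed among themselves in a way that the weeks of diet did not follow. *Itga5*, *Itga6*, *Itga8*, *Itga9*, *Itgb3* and *Itgb8* were higher in all of hypHSC 1, 2 and 3 than in hypHSC 4 and 5, and *Itgav* was lower, although hypHSC 3 shared its 12 weeks of diet with hypHSC 4 and 5. For *Itga6* the margin was narrow, with 394 normalized counts in hypHSC 3 and 385 in hypHSC 4. The macrophage receptor gene *Csf1r* showed the same split, at 14052, 24497, 24120.2, 5275 and 1833 normalized counts in hypHSC 1 to 5, and so did *Actb*, at 201672, 296496, 249100.0, 61939 and 18213. The macrophage marker *Cd68* did not, at 115258, 160725, 133590.0, 196974 and 179811. Nor did the sum of the 10 macrophage markers, at 1.33e+06, 1.44e+06, 1.23e+06, 1.28e+06 and 1.03e+06, where hypHSC 4 lay above hypHSC 3. *Lyz2*, at 740305 to 940344 in hypHSCs, carried most of this sum, so it says little of the other markers. *Adgre1* (1113 to 8100), *C1qa* (2231 to 51667.5), *C1qb* (23755 to 177694), *Fcgr1* and *Cd14* were lowest in hypHSC 5, as *Csf1r* was. *C1qc*, *Ptprc* and *Cd68* were not lowest there. The sum of the 8 hepatocyte markers was split the other way, like *Itgav*, at 34851, 32842, 13643, 88154 and 222227 normalized counts in hypHSC 1 to 5, and that of the 10 sinusoidal endothelial markers was 886 to 1211 in the first 3 and 701 and 876 in the last 2. Their part in the split of the integrin values was not tested. Within each group the SD of the log2 values ran from 0.48 (*Itgav*) to 2.14 (*Itgb8*) in hypHSCs and from 0.13 (*Itgb1*) to 1.29 (*Itga6*) in qHSCs, against a median over genes of 0.73 and 0.34.

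Of the 16 other integrin subunits on the list, 14 were tested, 7 were called higher and 1 was called lower, against 17.8% and 21.7% of all genes. The 7 include the leukocyte subunit β2, *Itgb2*, at 16579.8 to 40665 normalized counts in hypHSCs and 94.6 to 1284 in qHSCs (log2 fold change 6.54, SE 0.60, adjusted p = 7.54e-06 from limma). Its α partners *Itgal*, *Itgam*, *Itgax* and *Itgad* had log2 fold changes of 4.13, 7.45, 6.37 and 6.31. *Itgax* and *Itgad* stayed below 10 normalized counts in every qHSC library, with highest values of 9.96 and 4.72. Both passed the filter through the hypHSCs alone, so their place in the count of calls is a description. The subunits of leukocyte homing receptors, *Itga4* and *Itgb7*, had 4.14 and 3.32. These are integrins of blood cells, and the macrophage markers given above moved with them, a relation that was not tested. In qHSC 4 and 1, which had the highest macrophage sums of the qHSCs, *Itgb2* was also highest, at 1284 and 511 normalized counts.

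The subunit called lower was *Itga2b*, which encodes αIIb and pairs with the product of *Itgb3*. It was at 41.8, 28.99, 25.8, 40.9 and 0 normalized counts in hypHSC 1 to 5 and 1385, 1671, 721, 819 and 751 in qHSC 1 to 5. As for *Itgb3*, qHSC 2 was the highest library and hypHSC 5 was at 0. The log2 fold change was -5.88 (SE 0.93, adjusted p = 0.000350 from limma). The summed level of 8 platelet and megakaryocyte markers, *Itga2b* among them, was 4466 to 8157 normalized counts in hypHSCs and 3694 to 6269 in qHSCs. *Pf4* carried most of this sum. Without it, a choice made after seeing the data, the other 7 summed to 87.7 to 280.3 in hypHSC libraries but 813 to 1754 in those of qHSCs. *Itga2b* itself, at 721 to 1671, made up most of that qHSC sum, so this order is its own fall and not a separate result. Means of *Ppbp* and *Treml1* were higher in hypHSCs (61.3 and 28.9 against 7.77 and 0). Those of *Gp1ba* and *Gp1bb* were lower (28.8 and 26.2 against 48.3 and 39.7). The platelet receptor gene *Gp9* was at or under the floor of 3 reads in every library.

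Among the ligands, 28 of 32 genes were tested, 3 were called higher and 16 lower, against 17.8% and 21.7% of all genes. Laminin chains led the falls: *Lama1*, a laminin α chain, was at 0 to 53.9 normalized counts in hypHSCs and 2339 to 3309 in qHSCs (log2 fold change -7.78, SE 0.91, adjusted p = 4.53e-05 from limma), and *Lamb1* changed by -4.08 (SE 0.27) and *Col6a2*, a collagen VI chain, by -3.79 (SE 1.15). Fibronectin (*Fn1*), the ligand of α5β1, was also called lower, at 4405, 3857, 3984, 1979.7 and 2904 normalized counts in hypHSC 1 to 5 and 7822, 10225, 11738, 6930.2 and 7406 in qHSC 1 to 5 (-1.39, SE 0.24, adjusted p = 0.000725 from limma), while *Itga5* was called higher. Vitronectin (*Vtn*), a ligand of αvβ5 and αvβ3, was called lower as well (-2.32, SE 0.44). Osteopontin (*Spp1*), a ligand of αv and α9 integrins, was the largest rise on the list, at 278620.0, 176880.0, 160907, 236434 and 335921 normalized counts in hypHSC 1 to 5 and 138, 48.6, 382, 1.71 and 38.96 in qHSC 1 to 5 (12.19, SE 1.03, adjusted p = 4.37e-06 from limma). Von Willebrand factor (*Vwf*), a ligand of αvβ3 made by endothelial cells, was called higher too (4.16, SE 0.49), and the third, *Lama4*, was low at 15.1 to 98.4 normalized counts in hypHSCs and 1.57 to 19.01 in qHSCs, and its call was kept in 14 of the 22 alternatives.

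*Spp1* is also expressed by bile duct cells, but not by them alone, and its source here was not tested. The summed level of 7 cholangiocyte markers, *Spp1* included, was 162466 to 336718 normalized counts in hypHSCs and 30.8 to 387 in qHSCs. *Spp1* alone, at 160907 to 335921, made up nearly all of the hypHSC sum. All 5 markers that were tested were called higher, against 17.8% of all genes, and of these *Krt19* and *Cldn4* passed the filter through the hypHSCs alone. The other members of the list were far lower than *Spp1*, *Krt19* at 33.3 to 710.1 in hypHSCs and 0 to 8.15 in qHSCs. *Itgb6* and *Itgb4* had their highest value in the same library as *Krt19*, hypHSC 1. Whether these move together was not tested.

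Of the genes for adaptors that link integrins to actin, 29 of 31 were tested, 5 were called higher and 11 lower, against 17.8% and 21.7% of all genes, so the share called higher was near that of all genes. Kindlin-2 (*Fermt2*), which activates integrins by binding the β tail, was at 1044, 891, 567, 799 and 852 normalized counts in hypHSC 1 to 5 and 21829, 26761, 21189, 33890.3 and 41789 in qHSC 1 to 5. The groups were far apart (log2 fold change -5.11, SE 0.23, adjusted p = 7.39e-08 from limma). Its relative of blood cells, kindlin-3 (*Fermt3*), was called higher (3.74, SE 0.73), at 3134, 6647, 6863, 2007 and 600.5 in hypHSC 1 to 5 and 395, 80.9, 139, 664 and 136 in qHSC 1 to 5, where hypHSC 5 lay below qHSC 4. Of the talins, which also bind the β tail, *Tln1* was not called (-0.14, SE 0.47) and *Tln2* was called lower (-5.77, SE 0.86). Of the focal adhesion kinases, *Ptk2* was called lower (-2.52, SE 0.32) and *Ptk2b*, at 219 to 2184 normalized counts in hypHSCs and 6.74 to 99.3 in qHSCs, was called higher (4.94, SE 0.85). *Bcar1*, a scaffold of focal adhesions, changed by -4.89 (SE 1.07), and *Parvg* and *Tns4* by 4.51 (SE 1.17) and 4.25 (SE 1.04). *Ilk* had no row with its symbol and was not analysed here.

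On the side of TGF-β, all 9 genes for the cytokines and the proteins that hold their latent form were tested, 3 were called higher and 3 lower, which for so few genes is to be read against the same 17.8% and 21.7%. *Lrrc32*, which holds latent TGF-β on the cell surface, was called lower (-2.65, SE 0.31, adjusted p = 4.63e-05 from limma), at 121 to 374 normalized counts in hypHSCs and 909.6 to 1711 in qHSCs. *Nrros*, its relative in macrophages, was called higher (4.55, SE 0.87, adjusted p = 0.00130 from limma), at 9388, 16967, 15353, 5393 and 1798 in hypHSC 1 to 5 and 691, 79.2, 272, 1881 and 117 in qHSC 1 to 5, and hypHSC 5 lay below qHSC 4. Of the matrix carriers, *Ltbp4* (-4.70, SE 0.81) and *Ltbp1* (-3.00, SE 0.54) were called lower and *Ltbp2* higher (6.42, SE 0.90). *Tgfb1* was called higher (1.504, SE 0.54, adjusted p = 0.0380 from limma) at only 16.6 to 37.7 normalized counts in hypHSCs and 3.41 to 14.6 in qHSCs. This call was kept in 9 of 22 alternatives, among them 3 of 10 with 1 library left out, and the highest adjusted p over the 22 (limma, DESeq2 or edgeR) was 0.328. *Tgfb2* and *Tgfb3* were not called. The genes of these lists that are named were those called whose mean reached 100 normalized counts in a group, up to 3 in each direction for a list, and *Fn1*, *Vtn*, *Fermt3*, *Tln1*, *Ptk2*, *Tgfb1*, *Tgfb2*, *Tgfb3*, *Lama4* and *Itgb4* were named after their values had been seen.

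**Figure D5:**
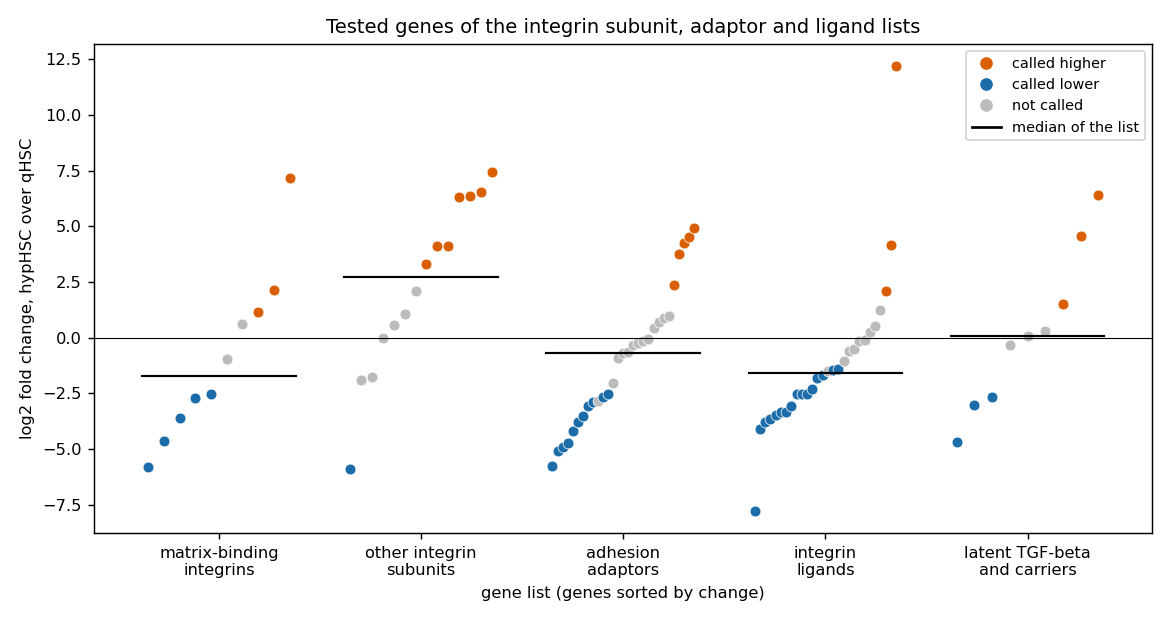
Log2 fold change of every tested gene on 5 lists, sorted within each list and coloured by its call, with a line at the median of the list. Medians were -1.74 for the 10 matrix-binding integrins, 2.71 for 14 other integrin subunits, -0.69 for 29 adaptors, -1.59 for 28 ligands and 0.09 for 9 genes of latent TGF-β, against -0.20 over all genes tested.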

How the data were processed

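RNA sequencing libraries of 5 hypHSC and 5 qHSC preparations were compared. According to their methods and the labels, the authors prepared unstranded libraries from the poly(A) tail, mapped paired reads to mm39 (GRCm39) with STAR, counted them per gene with featureCounts (Subread 1.5.0) and divided the counts by DESeq2 size factors. The deposited values are this signal, the normalized count, rounded to 2 decimals, and multiplying by the size factor gave whole reads for 100% of values (tolerance 0.05).

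The scale was log2(normalized count + 1) and the test was limma 3.58.1 (R 4.3.3, intensity trend), for rows that have a symbol and reach 10 normalized counts in 5 or more of the 10 libraries. DESeq2 1.42.0 and edgeR 4.0.16 on the recovered reads called 5861 and 5336 genes, against 5779 by limma. FPKM was computed here from those reads and the exon length of the canonical GENCODE transcript, for 92.0% of the rows with a symbol. Exact permutation tests were two-sided on log2 values. No pair of libraries had equal counts (lowest chi-square per gene 55.4), and all were kept. The integrin genes and all lists were chosen with earlier results of these data known, and adjusted p-values are over all genes tested. The naming rule took all 10 integrin genes, every called other subunit and, for each other list, up to 3 called genes in each direction whose mean reached 100 normalized counts in a group. The limma step was tested on simulated data. Alternatives changed the pseudocount, filter, scaling, tool, replicate block, libraries used or transcript length.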

Additional observations from a re-analysis of the deposited data

Results flagged for a closer look

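The groups of 5 libraries of the 10 integrin genes, 20 in all, were screened for a single library far from the others with Dixon's ratio, whose 95% critical value is 0.71 for 5 libraries. The ratio exceeded it once, for *Itga6* in hypHSCs, where hypHSC 5 at 162 normalized counts was lowest and its gap to the next library was 0.826 of the range of the group on the log2(normalized count + 1) scale. About 1 in 20 groups exceeds the value by chance. Without hypHSC 5 the gene was still called higher, as it was with each other library left out (log2 fold change between 6.84 and 7.60, limma). These fits kept the filter made on all 10 libraries, which *Itga6* had passed through the hypHSCs alone, so its calls here are a description.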

How the results depend on the processing

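Each of 22 alternatives kept the direction of 9 of the 10 integrin genes. Scaling on *Hprt*, *Pgk1* and *Actb* gave 1472 genes higher and 6990 lower, shifted the median of all genes by -0.93 and turned *Itgb5* to -0.32, and *Actb* itself ranged from 18213 to 296496 normalized counts among hypHSCs. Scaling to the same total shifted that median by -0.35 and to the same upper quartile by 0.11. With rows without a symbol, which adds features, 3911 were higher and 5380 lower. With 1 library left out, 2 to 3 of the integrin genes were called higher and 5 to 6 lower, and 2432 to 2716 and 2809 to 3286 of all genes. Calls changed for *Itgav* and *Itgb1* as given with their values, and for *Itga5* with the 12-week hypHSCs only. With coding length in place of exon length, added after the data had been seen, the mean shares among the αv partners were 69.4% (*Itgb1*) and 26.2% (*Itgb5*) in qHSCs, and for *Itgb8* 0.165% in hypHSCs and 1.01% in qHSCs, and in hypHSCs they were 46.7% (*Itgb1*) and 52.2% (*Itgb5*). Among the 6 α subunits that length gave 29.5% (*Itga1*), 26.0% (*Itga8*) and 7.56% (*Itga5*) in qHSCs, which put α1 before α8, and 1.41% (*Itga1*), 40.6% (*Itga5*) and 44.3% (*Itgav*) in hypHSCs, which put the mean of αv before that of α5. The planned coding length from a protein table was not run. The setting without both hypHSC 5 and qHSC 3 was also chosen after seeing the data. Replicate numbers did not pair the libraries, since correlations of same-numbered libraries were 0.00815 to 0.129 and 1 of 5 matched its own number best. A replicate block gave 2557 genes higher and 3229 lower, with 3 and 5 of the integrin genes, and changed no call among these 10. Depth limits *Itga6* in qHSCs and *Itgb3* and *Itgb8* in hypHSCs, where libraries lay at or near 3 reads.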
